A study of Mus musculus with 21 samples.

Results

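Among the mesodermal cells of day 4 mouse embryoid bodies that carried both PDGFRalpha and FLK1, those with Etv2 reporter fluorescence were compared with those without it. Embryoid bodies are aggregates of differentiating embryonic stem (ES) cells, and PDGFRalpha and FLK1 are the receptors encoded by Pdgfra and Kdr. Cells with both receptors are called DP here. The comparison rested on 6 of the 21 libraries of the series, 3 of DP Etv2-negative and 3 of DP Etv2-positive cells, taken by their sample labels. All 6 came from the same reporter ES line, T-GFP; Etv2-tdTomato (TGET), in which a green fluorescent protein reports T and a red one, tdTomato, reports Etv2. Both groups therefore carried both reporters, and they differed only in the sort for tdTomato. No doxycycline is given for this line, and the labels do not say whether green fluorescence was a gate. The other libraries of the line were 3 each of Etv2-negative and Etv2-positive cells with FLK1 but without PDGFRalpha, called SP, which entered the same fit and served only to show where the DP difference departed from that in SP. The remaining 9 libraries, of wildtype and Etv2-inducible ES lines, were not used. The stem cells had been kept on irradiated mouse embryonic fibroblast feeders and then without feeders before differentiation. Only 1 line was used, and the labels do not state whether the replicates came from separate cultures. The p-values therefore reflect only how far these libraries spread, which may be technical.

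Etv2 is an ETS family transcription factor without which neither blood nor endothelium forms, and it is switched on only for a short time in FLK1+ mesoderm. Cells with both receptors are early mesoderm that still includes progenitors of paraxial, cardiac and vascular fates, and PDGFRalpha is usually lost as cells take the blood and endothelial path. The comparison asks which genes accompany Etv2 reporter activity while PDGFRalpha is still present. In sorted bulk samples, fewer cells of a type and less RNA per cell cannot be told apart.

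The 6 DP libraries held 25045553 to 32777143 counts assigned to genes, and ribosomal RNA took 0.243 to 0.337% of them. Across genes, log levels correlated with Pearson values of 0.990 to 0.996 within a group and 0.960 to 0.980 between the groups. No 2 libraries agreed within sampling noise, since the chi-square per gene was at least 5.4 for each pair. The first principal component held 73.1% of the variance among the 6 and separated the groups. The second held 12.4%, with both libraries numbered 3 at 1 end (-16.7 and -14.7) and Etv2-positive replicate 1 at the other (20.8). The remaining libraries lay at -0.765 to 8.02. Levels are in CPM, counts scaled to a common library size with TMM factors, and are listed in the order of replicates 1 to 3. Log2 fold changes are positive over negative, ± standard error, with n = 3 libraries per group, and a gene is called where edgeR's quasi-likelihood test gave an adjusted p (Benjamini-Hochberg, over all genes tested) under 0.05.

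Etv2 RNA followed the reporter gate. Etv2 itself stood at 23.2, 19.4 and 18.1 CPM in the Etv2-negative and 58.1, 68.9 and 48.2 CPM in the Etv2-positive libraries, a log2 fold change of 1.53 ± 0.15 (adjusted p = 1.23e-05). The groups did not overlap, and Etv2 RNA was present in the tdTomato-negative cells too. Kdr was present throughout, at 608, 614 and 537 against 440, 533 and 340 CPM (-0.42 ± 0.12, adjusted p = 0.0158). That small decrease was no longer called without Etv2-negative replicate 2 (-0.39, adjusted p = 0.0546) or with only the 6 DP libraries in the fit. Pdgfra fell from 271, 276 and 213 to 125, 170 and 154 CPM (-0.76 ± 0.19, adjusted p = 0.00868), so the Etv2-positive cells held less of the receptor RNA that defined their own gate. T, the Brachyury gene of nascent mesoderm, fell from 126, 114 and 70.5 to 46.1, 43.9 and 23.5 CPM (-1.46 ± 0.30, adjusted p = 0.00279).

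Markers of other cell types were summed per library. Definitive and visceral endoderm markers came to 123 to 131 CPM in the negative and 131 to 139 CPM in the positive libraries, with 3 of 17 tested higher and 3 lower. Neuroectoderm markers came to 115 to 148 and 113 to 146 CPM (2 of 11 higher, 5 lower), undifferentiated stem cell markers to 455 to 539 and 374 to 488 CPM (1 of 10 higher, 4 lower) and trophoblast markers to 1058 to 1089 and 935 to 1001 CPM (2 of 7 higher, 1 lower). Eomes and Hand1 of the trophoblast list also stand in the mesoderm lists below, and Eomes held a large part of its sum in the negative libraries. Pou5f1 and Nanog of the stem cell list fell, as given below. Sums can stay close while members move in opposite directions, so they do not show how much of another cell type was present. White blood cell markers came to 14.6 to 20.4 and 18.2 to 33.9 CPM with 0 of 5 called, and the pan-leukocyte gene Ptprc had 0 counts in all 6 libraries. Fibroblast feeder markers, which moved with the groups, are given beside the matrix genes.

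A large part of the transcriptome differed between the reporter groups. Of 17690 genes tested, 5435 were called (30.7%), 2827 of them higher (16%) and 2608 lower (14.7%) in Etv2-positive cells, and 586 and 690 differed by at least 2-fold. The groups did not overlap for 7438 of the genes tested (42%). The median log2 fold change over all genes tested was 0.0042. These shares are the background for every list below. Blood and endothelial regulators, smooth muscle genes and IGF genes leaned higher, whereas paraxial, streak, Nodal, Notch and retinoic acid genes leaned lower.

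**Figure D1:**
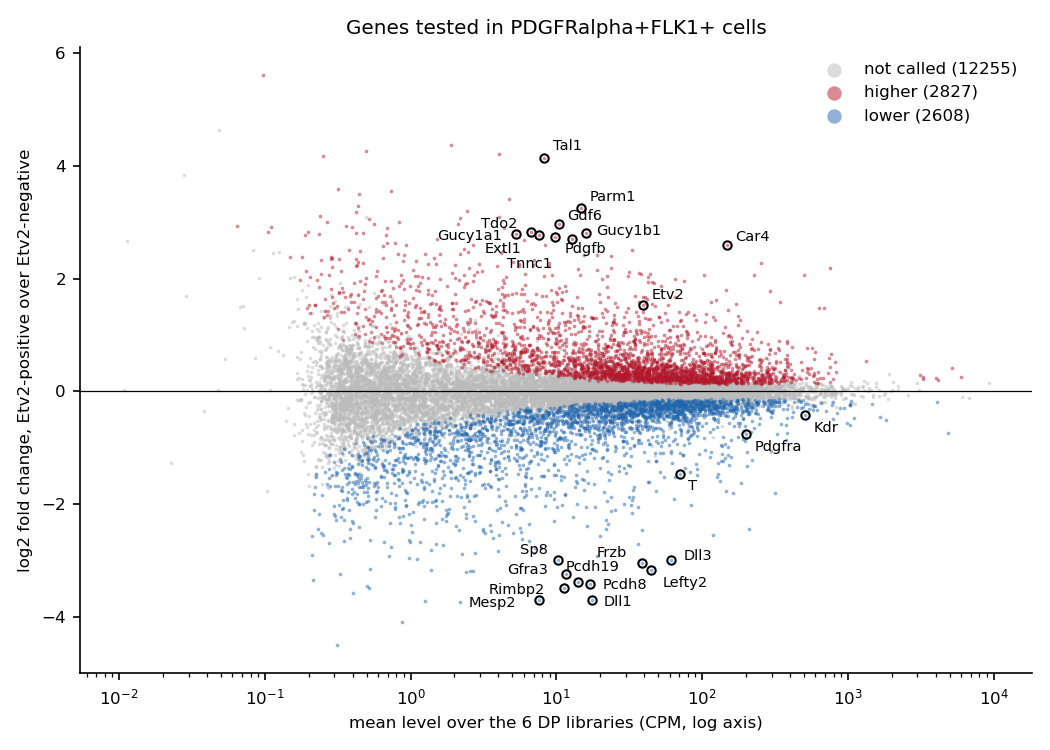
Log2 fold change of each of the 17690 genes tested against its mean level over the 6 DP libraries (log axis). Red points are the 2827 genes called higher, blue points the 2608 called lower and grey points those not called. Circles mark the sort genes and the 10 largest increases and 10 largest decreases, taken among genes of at least 5 CPM whose groups did not overlap.

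Called protein-coding genes of at least 5 CPM whose groups did not overlap were ranked by their change. The 10 largest increases were in 2 growth factors, Pdgfb (2.74 ± 0.16) and the BMP relative Gdf6 (2.98 ± 0.31), in both guanylate cyclase subunits, Gucy1a1 (2.80 ± 0.52) and Gucy1b1 (2.81 ± 0.40), in 3 enzymes, the carbonic anhydrase Car4 (2.60 ± 0.31), the glycosyltransferase Extl1 (2.78 ± 0.29) and Tdo2 (2.83 ± 0.45), which breaks down tryptophan, in the slow troponin Tnnc1 (2.70 ± 0.21), in Parm1 (3.26 ± 0.30) and in Tal1 (4.14 ± 0.46), a regulator of blood and endothelium. The 10 largest decreases were in Sp8 (-2.99 ± 0.33), a zinc finger factor, the Notch ligands Dll3 (-2.99 ± 0.31) and Dll1 (-3.69 ± 0.25), the secreted antagonists Frzb (-3.05 ± 0.35, of Wnt) and Lefty2 (-3.17 ± 0.50, of Nodal), the GDNF family receptor Gfra3 (-3.23 ± 0.17), Pcdh19 (-3.37 ± 0.22) and Pcdh8 (-3.42 ± 0.36), both protocadherins, Rimbp2 (-3.48 ± 0.21) and the somite gene Mesp2 (-3.71 ± 0.22). All 20 were called under each of the 17 alternatives tried. Car4 reached the highest level among the increases, with 35.4, 29.1 and 61.1 CPM in negative and 275, 194 and 292 CPM in positive libraries. Parm1 stood at 1.72, 1.81 and 4.88 against 22.3, 28.7 and 29.9 CPM, and Extl1 at 1.22, 1.81 and 2.73 against 14.4, 11.3 and 14.2 CPM. In each of these the negative replicate 3 lay above the other negatives and well below every positive library.

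The upstream sequences of 6 of these genes are shown because they stand for both directions and for 3 neighbours on chromosome 3 that moved together. Each is the 250 bases before the transcription start that RefSeq gives on GRCm38.p6, the build of the files, read 5′ to 3′ on the gene's strand (the first where RefSeq lists several). Capitals mark the words searched on both strands, CCGGAA or CAGGAA of ETS factors, AGATAA or TGATAA of GATA factors, CAGATG of E-box factors and AGGTGT of T-box factors. The windows lie at chr4:115056176-115056425 (plus strand), chr3:81975729-81975978, chr3:82074712-82074961 and chr3:82145651-82145900 (minus strand), chr11:84957504-84957753 (plus) and chr7:79810477-79810726 (plus). The Tdo2 window lies inside the GENCODE M21 model of the gene (81957090 to 81976202). The Gucy1a1 window lies partly inside its model (82092427 to 82145789). Both are therefore upstream of the RefSeq start only.
Tal1: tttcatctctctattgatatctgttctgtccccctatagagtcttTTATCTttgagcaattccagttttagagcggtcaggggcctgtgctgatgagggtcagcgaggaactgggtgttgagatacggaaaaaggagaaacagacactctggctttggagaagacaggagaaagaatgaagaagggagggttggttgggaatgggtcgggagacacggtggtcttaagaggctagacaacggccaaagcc
Tdo2: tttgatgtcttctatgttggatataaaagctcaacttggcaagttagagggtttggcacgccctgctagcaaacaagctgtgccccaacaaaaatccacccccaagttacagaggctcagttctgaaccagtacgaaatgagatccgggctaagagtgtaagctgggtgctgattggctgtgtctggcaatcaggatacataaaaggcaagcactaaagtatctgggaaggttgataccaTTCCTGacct
Gucy1b1: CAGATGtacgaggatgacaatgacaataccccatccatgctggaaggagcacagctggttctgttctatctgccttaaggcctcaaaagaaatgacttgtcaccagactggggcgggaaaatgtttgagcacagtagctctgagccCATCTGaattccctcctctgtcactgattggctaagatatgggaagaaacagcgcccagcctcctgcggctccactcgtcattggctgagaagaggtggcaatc
Gucy1a1: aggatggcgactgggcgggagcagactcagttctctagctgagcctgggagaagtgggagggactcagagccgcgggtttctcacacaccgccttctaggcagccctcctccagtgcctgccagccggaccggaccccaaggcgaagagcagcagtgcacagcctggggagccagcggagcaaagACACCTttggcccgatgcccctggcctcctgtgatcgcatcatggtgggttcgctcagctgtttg
Car4: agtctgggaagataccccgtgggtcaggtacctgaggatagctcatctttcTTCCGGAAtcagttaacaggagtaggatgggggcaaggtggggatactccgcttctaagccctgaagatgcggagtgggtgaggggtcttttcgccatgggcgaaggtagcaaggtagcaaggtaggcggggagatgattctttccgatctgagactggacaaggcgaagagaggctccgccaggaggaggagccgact
Mesp2: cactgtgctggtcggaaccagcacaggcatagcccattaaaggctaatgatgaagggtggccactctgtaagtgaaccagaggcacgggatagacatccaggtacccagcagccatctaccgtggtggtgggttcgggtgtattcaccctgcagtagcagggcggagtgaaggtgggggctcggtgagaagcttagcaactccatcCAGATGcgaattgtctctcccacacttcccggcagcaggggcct
Tal1 held a GATA word 205 bases before its start, Tdo2 an ETS word at 10 bases, and Gucy1b1 E-box words at 250 and 104 bases. Gucy1a1 held a T-box word at 65 bases and Mesp2 an E-box word at 44 bases. In Car4 an ETS word and the same word on the opposite strand overlapped at 199 and 197 bases. Of the 8 largest increases with a RefSeq window, 3 held an ETS word (Tdo2, Extl1, Car4), 1 a GATA word, 2 an E-box word and 1 a T-box word, and of the 8 such decreases 1, 0, 2 and 1 did. Over all 27025 genes with a window, 38.2% held an ETS, 18.8% a GATA, 16.3% an E-box and 13.6% a T-box word. Gdf6, Pdgfb, Gfra3 and Lefty2 had no entry. A word is a match of letters and not evidence of binding.

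**Figure D2:**
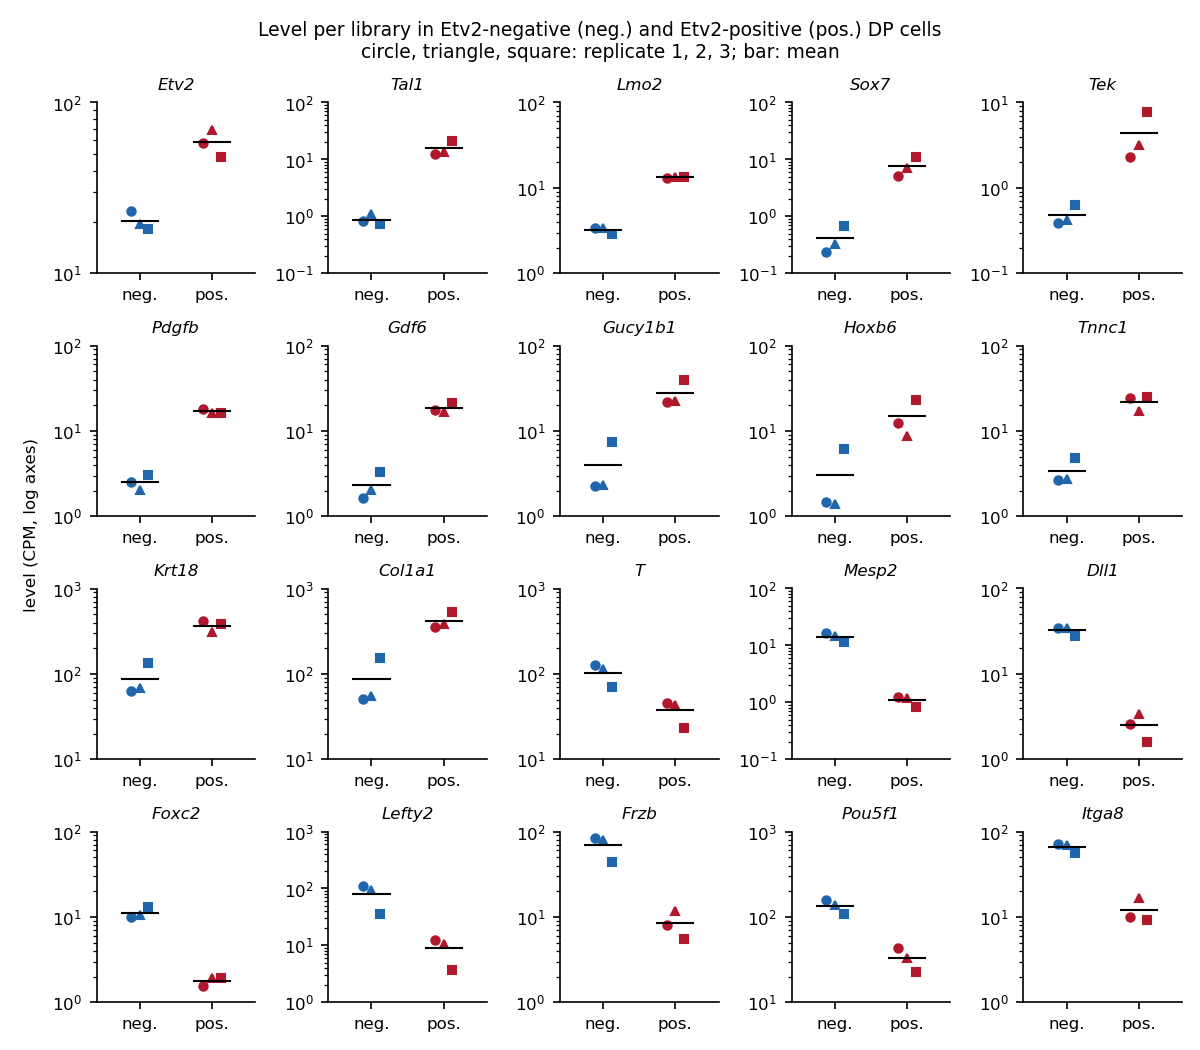
Level in each of the 6 DP libraries (CPM, log axes that differ between panels) for 20 genes described in the text, with circles, triangles and squares for replicates 1, 2 and 3 and a bar at each group mean. In all 20 panels the Etv2-negative and Etv2-positive libraries do not overlap, which also held for 42% of all genes tested. The largest changes among the 20 were chosen to show no overlap.

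Transcription factors of the blood and endothelial program were higher in part. Of 29 tested, 11 were higher, 1 lower and 17 not called, with a median log2 fold change of 0.91. Etv2 is 1 of the 11 and was the sort criterion. Tal1, which specifies both lineages, was close to absent in negative cells (0.823, 1.08 and 0.741 CPM) and reached 12.5, 13.7 and 20.9 CPM in positive cells (adjusted p = 3.47e-05). Its complex partner Lmo2 rose from 3.37, 3.38 and 2.93 to 13.1, 13.3 and 13.4 CPM (2.04 ± 0.26, adjusted p = 8.81e-05), and the corepressor Cbfa2t3 of the same complex rose by 1.72 ± 0.35. The SoxF factor Sox7, which is active in early vascular endothelium, went from 0.235, 0.332 and 0.673 to 5.22, 7.08 and 10.9 CPM (4.21 ± 0.47, adjusted p = 3.92e-05). Sox17, a SoxF factor of arterial endothelium and also of endoderm, rose less (1.44 ± 0.20).

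Elk3 (1.00 ± 0.15), Gata2 (0.93 ± 0.21), Runx1 (0.91 ± 0.15) and Gata3 (0.70 ± 0.17) rose, and for each the groups did not overlap. Runx1, needed for blood stem cells to emerge, stood at 13.7, 17.8 and 17.1 against 30.6, 36.1 and 25.3 CPM. The call of Gata2 was lost without both libraries numbered 3 (0.76, adjusted p = 0.0611), an alternative chosen after the data were seen. The ETS factor Erg, at 0.0337 to 0.0603 CPM in negative and 0.257 to 0.375 CPM in positive cells, was called (2.78 ± 0.90, adjusted p = 0.0323). It was not called without Etv2-negative replicate 1, 2 or 3 or Etv2-positive replicate 2 or 3 (2.62 to 3.07, adjusted p 0.0675 to 0.0863).

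Several well-known vascular factors were not called. The ETS factor Fli1 stood at 3.1, 3.46 and 4.28 against 4.85, 5.84 and 6.57 CPM (0.67 ± 0.32, adjusted p = 0.133), Lyl1, a relative of Tal1, differed by 1.51 ± 0.64 (adjusted p = 0.0936) and the blood progenitor factor Myb by 1.74 ± 0.80 (adjusted p = 0.119). With the replicate number as a block these 3 were called (adjusted p = 0.0153, 0.0157 and 0.0145). Hhex, of the earliest blood and endothelial progenitors, was not called (0.43 ± 0.28, adjusted p = 0.286). Bcl6b, an endothelial repressor, was the only factor of the list called lower (-0.99 ± 0.25, adjusted p = 0.0093), at levels of 0.412 to 1.25 CPM, and not without both libraries numbered 3 (adjusted p = 0.0518).

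Endothelial surface genes were mostly low in level and rose in part. Of 28 tested, 12 were higher, 3 lower and 13 not called (median 0.78). VE-cadherin (Cdh5), the adhesion molecule of endothelial junctions, went from 0.118, 0.0904 and 0.135 to 0.699, 1.16 and 2.2 CPM (3.56 ± 0.75, adjusted p = 0.00316). The angiopoietin receptor Tek went from 0.392, 0.422 and 0.639 to 2.28, 3.15 and 7.81 CPM (3.19 ± 0.62, adjusted p = 0.00172). The groups did not overlap for either gene, though the positive libraries differed by over 3-fold among themselves. The sphingosine phosphate receptor S1pr1 (2.47 ± 0.21), the diaphragm protein Plvap (1.86 ± 0.17), Ecscr (1.59 ± 0.17), the small GTPase Rhoj (1.19 ± 0.24) and the TGF-beta co-receptor endoglin (Eng, 1.12 ± 0.12) also rose. The protocadherin Pcdh12 of endothelial junctions rose from 0.157, 0.151 and 0.202 to 3.35, 4.8 and 2.67 CPM (4.37 ± 0.38, adjusted p = 6.04e-06). Vwf (1.98 ± 0.54) and Pecam1 (1.40 ± 0.44), which encode von Willebrand factor and CD31, were called (adjusted p = 0.0139 and 0.0285). Without Etv2-negative replicate 1 or 2 or Etv2-positive replicate 3 both lost the call (Vwf 1.19 to 1.79, adjusted p 0.0561 to 0.0897; Pecam1 0.94 to 1.17, adjusted p 0.108 to 0.145).

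Other receptors of the same list went down. Aplnr, the apelin receptor of lateral mesoderm and veins, fell from 229, 188 and 183 to 86, 88.7 and 89.7 CPM (-1.18 ± 0.10, adjusted p = 5.99e-06), with no overlap. Robo4 was called lower (-0.85 ± 0.28, adjusted p = 0.0328) at 0.31 to 0.941 CPM, but not without Etv2-negative replicate 1 or 2 or Etv2-positive replicate 1 or 3 (-0.90 to -0.63, adjusted p 0.0595 to 0.136), nor in 5 other alternatives. The VEGF receptor Flt1 (19.7, 18.2 and 15.7 against 9.01, 12.2 and 14.5 CPM, -0.58 ± 0.22) and the secreted vessel factor Egfl7 (0.58 ± 0.21) were not called (adjusted p = 0.0659 and 0.0555), and both were called with the replicate block (0.0166 and 0.00483).

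Among 16 VEGF and PDGF genes, 6 were higher and 2 lower, with a median of 0.08. The ligands that rose were Pdgfb, which endothelium secretes to recruit mural cells, from 2.51, 2.02 and 3.06 to 18.3, 16.3 and 16.2 CPM (adjusted p = 4.11e-07), Pdgfc (1.93 ± 0.29) and the lymphatic growth factor Vegfc (1.23 ± 0.15). Among the receptors Pdgfrb (0.82 ± 0.14) and the co-receptor Nrp1 (0.84 ± 0.13) rose, opposite to Pdgfra and Kdr. Nrp1 stood at 179, 180 and 247 against 293, 379 and 412 CPM. Erythroid genes were near their background, with 3 of 17 higher, 1 lower and a median of 0.19. The embryonic globin Hbb-bh1 had 0 counts in the negative and 9 counts in the positive libraries together. The transferrin receptor Tfrc rose by 0.54 ± 0.09 (249, 255 and 277 against 367, 358 and 414 CPM). Of the heme enzymes, Alas1 (0.19 ± 0.07) was called higher and Cpox (-0.34 ± 0.10) lower. These calls ended for Alas1 without Etv2-negative replicate 2 or 3 or Etv2-positive replicate 1 or 2 (0.0879 to 0.144) and for Cpox without Etv2-negative replicate 3 or Etv2-positive replicate 1 (0.0589 to 0.0689). Counting all 17 alternatives, Alas1 lost its call in 9 and Cpox in 3.

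The receptor for nitric oxide, soluble guanylate cyclase, is a dimer that makes cyclic GMP, and both of its main subunits rose. Gucy1b1 went from 2.27, 2.35 and 7.37 to 21.6, 22.7 and 39.9 CPM (adjusted p = 0.000225) and Gucy1a1 from 0.509, 0.904 and 2.56 to 6.58, 6.93 and 14.3 CPM (adjusted p = 0.00131). In both genes replicate 3 was the highest of its group, and the groups did not overlap. Of the 9 genes of the list tested, 3 were higher and 3 lower (median -0.08). The phosphodiesterase Pde3a rose (1.21 ± 0.20), whereas Pde5a, which degrades cyclic GMP, fell (-0.68 ± 0.11). The alternative subunit Gucy1a2 (-0.45 ± 0.16) and the cyclic GMP kinase Prkg2 (-0.92 ± 0.30) were called lower with adjusted p of 0.043 and 0.0343. Gucy1a2 lost its call without Etv2-negative replicate 1, 2 or 3 or Etv2-positive replicate 1 or 2 (0.0523 to 0.156), and Prkg2 without Etv2-negative replicate 1 or 2 or Etv2-positive replicate 1, 2 or 3 (0.058 to 0.142). Counting all alternatives, Gucy1a2 lost its call in 7 of 17 and Prkg2 in 8 of 16, among them DESeq2 for Prkg2.

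Both cyclase genes lie in a run of neighbours that rose together. Tested protein-coding genes were taken in genome order, and runs in which every gene was called in the same direction with at least a 2-fold change were listed, a search made after the values were seen. Among the 429 increases and 484 decreases that stood alone and the 90 pairs, the longest runs were 2 of 6 genes each, both of increases. The run on chromosome 3 (mm10, 80843599 to 82145789) held the glycine receptor subunit Glrb (1.61 ± 0.28), Pdgfc, the cathepsin Ctso (1.45 ± 0.27), Tdo2, Gucy1b1 and Gucy1a1. Tdo2 stood at 0.862, 0.934 and 3.16 against 10.4, 7.87 and 17.1 CPM, with negative replicate 3 over 3-fold above the other negatives. Asic5, which lies inside the run, was too low to be tested, and the next tested gene, Map9, was not called (0.15 ± 0.12, adjusted p = 0.391). The RefSeq windows of Tdo2, Gucy1b1 and Gucy1a1 printed above shared none of the 4 kinds of word. Each kind was held by 13.6 to 38.2% of all genes, and how often any 3 genes share none was not computed. Nothing about the run can be read from these words. The other run of 6 was in the Hoxb cluster. Among shorter runs of 3 were the keratins Krt79, Krt8 and Krt18 (higher) and Mesp1, Mesp2 and Anpep (lower). Krt79 was not called without Etv2-positive replicate 3 (1.41, adjusted p = 0.0506).

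**Figure D3:**
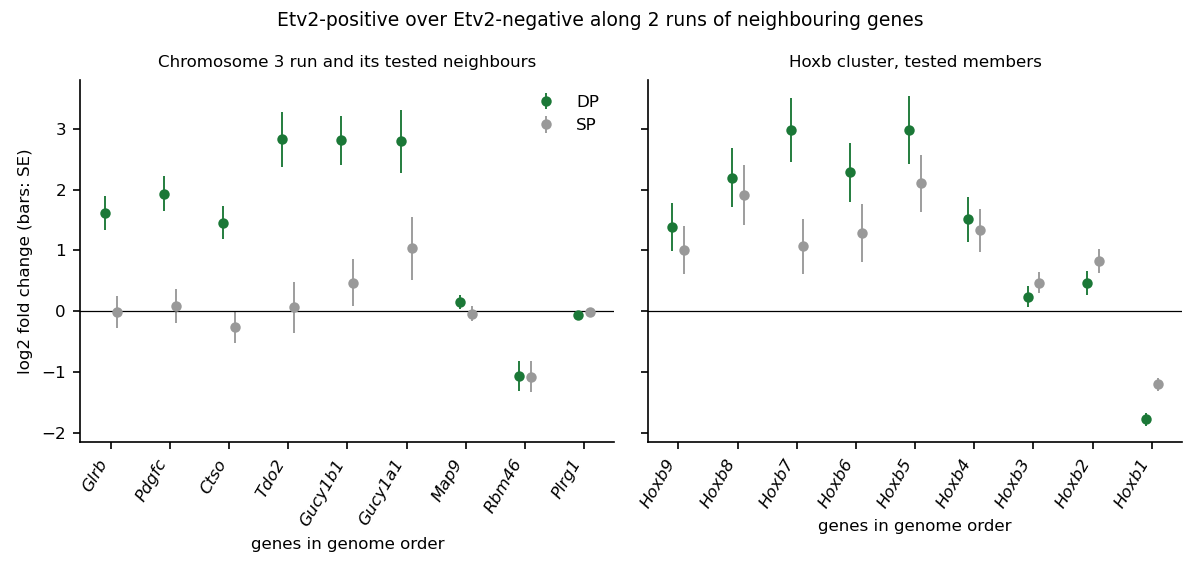
Log2 fold change of Etv2-positive over Etv2-negative cells (points, with standard errors as bars) for tested genes in genome order, left along the chromosome 3 run and its neighbours and right along the Hoxb cluster, in DP (green) and SP (grey). In DP the 6 genes from Glrb to Gucy1a1 lie between 1.45 and 2.83 and Map9 at 0.15, and the genes from Hoxb9 to Hoxb4 lie between 1.38 and 2.98 with Hoxb1 at -1.78.

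Apelin and Cxcl12 signalling guides the migration of mesoderm cells. Of 6 genes, 3 were lower and 1 higher (median -0.51). The ligand Apln fell from 8.19, 7.23 and 8.62 to 3.71, 3.9 and 3.01 CPM (-1.18 ± 0.14), alongside its receptor Aplnr, and the chemokine receptor Cxcr4 fell by 0.64 ± 0.16 on the log2 scale. The scavenger receptor Ackr3 was called higher (0.43 ± 0.15, adjusted p = 0.0455), but not without Etv2-negative replicate 1 or 2 or Etv2-positive replicate 1 or 2 (0.082 to 0.173) or with upper-quartile scaling.

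The Notch pathway, which times the formation of somites and later assigns arterial fate, was lower in its ligands. Of 16 genes tested 8 were lower, 1 higher and 7 not called (median -0.44), and 3 of the 4 ligands tested fell. Dll1 dropped from 34.9, 34.1 and 28 to 2.57, 3.41 and 1.61 CPM (adjusted p = 1.24e-06), and Dll3 from 130, 118 and 77.1 to 16.4, 17.6 and 7.1 CPM. Jag1 fell less, from 32.6, 40.4 and 33.9 to 7.68, 12 and 8.06 CPM (-1.95 ± 0.19). The receptor Notch1 fell from 101, 101 and 104 to 33.7, 51.1 and 55 CPM (-1.12 ± 0.14), and the glycosyltransferase Lfng, which tunes Notch in the somite clock, fell by 2.35 ± 0.27. Among targets Hey1 fell (-0.72 ± 0.12), and Hes1, at 97.8 to 110 against 82.6 to 106 CPM, was not called (-0.12 ± 0.11, adjusted p = 0.463). Rfng, a relative of Lfng, was called higher (0.28 ± 0.08), but not without Etv2-negative replicate 1 or 3 or Etv2-positive replicate 1 (0.0524 to 0.073).

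Paraxial mesoderm, the source of somites, had the highest share of lower genes of any list. Of 14 genes tested 11 were lower, 1 higher and 2 not called, with a median of -2.62. Mesp2, which sets the somite boundary, fell from 16.6, 14.6 and 11.5 to 1.25, 1.2 and 0.837 CPM (adjusted p = 4.11e-07). The presomitic factors Tbx6 (16, 14.3 and 10.7 against 2.21, 2.47 and 1.4 CPM, -2.77 ± 0.27) and Msgn1 (-2.60 ± 0.31) fell with it. The forkhead factors Foxc1 (-2.87 ± 0.25) and Foxc2 (10.1, 10.7 and 13 against 1.54, 1.91 and 1.92 CPM, -2.65 ± 0.21) fell, as did Pcdh8 (33, 40.1 and 19.8 against 2.65, 4.2 and 1.92 CPM) and Pcdh19, which act in somite boundaries and cell adhesion. Meox1, a homeobox gene of formed somites, was the exception and rose from 1.22, 1.48 and 1.75 to 3.57, 3.78 and 3.5 CPM (1.28 ± 0.16).

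Streak and nascent mesoderm factors were likewise lower. Of 18 tested, 13 were lower, 0 higher and 5 not called (median -1.47). Mesp1, a factor of the first cardiac and cranial mesoderm, fell from 240, 195 and 175 to 48.2, 38.5 and 18.6 CPM (-2.54 ± 0.27), and Lhx1 from 424, 424 and 215 to 67.6, 98.7 and 30.5 CPM (-2.44 ± 0.37). For these genes replicate 3 was the lowest of its group, and no positive library reached a negative one. Sp8, which acts in the tail bud, also fell. Eomes (628, 660 and 399 against 327, 378 and 145 CPM, -0.99 ± 0.36) and Mixl1 (-0.80 ± 0.39) were not called (adjusted p = 0.0507 and 0.14), and both were called with the replicate block (8.82e-06 and 6.04e-06). Replicate 3 was the lowest library of each group for both genes.

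The Nodal pathway maintains the streak, and its feedback antagonists fell furthest. Of 17 genes 9 were lower and 1 higher (median -0.50). Lefty2, which is induced by Nodal and blocks it, fell from 111, 93.2 and 34.9 to 12.3, 10.8 and 3.72 CPM (adjusted p = 0.000476), and Lefty1 fell with it (-2.17 ± 0.39). The co-receptor Tdgf1 fell from 555, 622 and 303 to 180, 190 and 56.4 CPM (-1.80 ± 0.49). Nodal itself fell by 0.85 ± 0.25 (adjusted p = 0.0203), a call lost without Etv2-negative replicate 1 or 2 or Etv2-positive replicate 1 or 3 (0.0582 to 0.0659). The receptor Acvr2b fell (-0.82 ± 0.13), and the convertase Furin, which cleaves Nodal among many ligands, rose (0.73 ± 0.14). Pluripotency genes still expressed at day 4 fell in part, with 12 of 26 lower, 1 higher and 13 not called (median -0.44). Sox2, Klf4, Esrrb and Zfp42 were among those not called. Of the lower genes, Tdgf1 also stands in the Nodal list and Fgf4 and Fgf5 in the FGF list. Pou5f1 (Oct4) fell from 157, 138 and 107 to 43.4, 33.5 and 23 CPM (-2.01 ± 0.23), Nanog from 34.7, 31.1 and 23.2 to 8.27, 7.34 and 6.01 CPM (-2.04 ± 0.26), and Sall4 by 0.73 ± 0.11.

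BMP signalling, which ventralizes mesoderm and precedes Etv2, was split between its parts. Of 30 genes 10 were higher and 6 lower (median 0.04), with 4 of 7 ligands and 5 of 9 targets and feedback genes higher, and 3 of 7 antagonists lower. The ligand Gdf6 rose from 1.65, 2.05 and 3.33 to 17.4, 16.9 and 21.4 CPM (adjusted p = 2.1e-05). Bmp4 was called higher (0.49 ± 0.16, adjusted p = 0.0347), but not without Etv2-negative replicate 1 or 2 or any of the 3 Etv2-positive replicates (0.0517 to 0.138). The targets Id3 (96.4, 99.9 and 122 against 220, 188 and 216 CPM, 0.97 ± 0.10) and Msx2 (0.72 ± 0.15) and the feedback inhibitors Smad6 (102, 91.5 and 114 against 216, 188 and 212 CPM, 1.00 ± 0.08), Smad7 (0.46 ± 0.07) and Bambi (0.48 ± 0.11) rose. The target Id1 fell instead (-0.60 ± 0.12). The antagonists follistatin (Fst, -1.74 ± 0.25), noggin (Nog, -0.95 ± 0.16) and Bmper (-0.91 ± 0.16) fell, and so did the transducers Smad1 (-0.72 ± 0.17) and Smad5 (-0.45 ± 0.09).

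Wnt genes were lower more often than higher, 19 against 9 of 48 tested (median -0.21). Among ligands of the streak and tail bud, Wnt8a (-2.89 ± 0.29), Wnt3 (-1.10 ± 0.19) and Wnt5a (-0.96 ± 0.17) fell, and Wnt2b fell from 32.1, 29.9 and 15.3 to 6.51, 8.8 and 3.44 CPM (-2.05 ± 0.34). Wnt4 rose from 4.23, 4.22 and 5.59 to 18.8, 14.7 and 13.4 CPM (1.74 ± 0.24). The secreted antagonists Frzb (84.7, 79.1 and 43.7 against 8.05, 11.7 and 5.49 CPM) and Sfrp1 (-2.57 ± 0.18) fell strongly. The Wnt5a receptors Ror1 (-1.83 ± 0.16) and Ror2 (-1.35 ± 0.11) fell, while Fzd4, a receptor of vessel development, rose from 9.56, 11.2 and 29.4 to 51.1, 59.3 and 93.7 CPM (2.02 ± 0.35). The target Sp5 (-1.76 ± 0.35) and the effector Lef1 (-0.77 ± 0.13) fell, and the target and receptor Lgr5 rose (1.32 ± 0.17).

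FGF signals drive mesoderm migration, and the streak ligands Fgf8 (58.5, 60.1 and 43.5 against 13.1, 16.4 and 7.28 CPM, -2.15 ± 0.33) and Fgf4 (-2.44 ± 0.21) fell. Of 30 genes tested 11 were lower and 6 higher (median -0.21), with 8 of 12 feedback genes and targets lower, among them Dusp5 (-1.29 ± 0.15) and Etv5 (-0.62 ± 0.11). The receptor Fgfr2 rose from 30.3, 29.3 and 71.9 to 99, 101 and 149 CPM (1.41 ± 0.31), the membrane protein Flrt3, which binds FGF receptors, rose by 2.19 ± 0.18 and the inhibitor Spry1 by 0.60 ± 0.10. Retinoic acid genes were lower in 10 of 18 and higher in 3 (median -0.68). The synthetic enzyme of somites, Aldh1a2, fell from 29.2, 28 and 43.5 to 4.08, 5.62 and 3.69 CPM (-2.92 ± 0.21), and the binding protein Crabp1 (-1.61 ± 0.13) and the degrading enzyme Cyp26a1 (-1.22 ± 0.22) fell too. Aldh1a1, another synthetic enzyme, rose from at most 0.0673 to 0.868 to 1.03 CPM (4.26 ± 0.41).

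IGF genes, which support growth, leaned the other way, with 7 of 11 higher and 2 lower (median 0.82). Igf2 rose from 78.9, 77.1 and 163 to 178, 251 and 339 CPM (1.26 ± 0.28), and H19, the noncoding RNA next to it, from 33, 25.5 and 56.4 to 100, 77.5 and 126 CPM (1.40 ± 0.27). Only 24.1% of 50-base windows of the Igf2 transcript occurred in no transcript of another gene, so reads of overlapping gene models cannot be told apart from it. The binding proteins Igfbp2 (0.82 ± 0.12) and Igfbp4 (0.58 ± 0.05) and the adaptor Irs1 (1.07 ± 0.17) rose, and Igfbp3 fell (-1.01 ± 0.19).

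Hox genes, which are opened in order along their clusters and mark position along the body axis, rose in the middle of the Hoxb cluster. Of 20 Hox genes tested 8 were higher and 2 lower, and 6 of the 8 were in Hoxb, where 6 of 9 were higher with a median of 1.51. Hoxb5 rose from 0.196, 0.271 and 0.943 to 3.16, 2.55 and 5.49 CPM (2.98 ± 0.56), Hoxb6 from 1.49, 1.42 and 6.23 to 12.5, 8.8 and 23.1 CPM (2.28 ± 0.48), Hoxb7 by 2.98 ± 0.53, Hoxb8 by 2.20 ± 0.49 and Hoxb4 by 1.51 ± 0.37. In these genes negative replicate 3 lay above the other negatives by 2-fold or more and replicate 3 was the highest positive library, with no overlap between groups. Hoxb9 was called (1.38 ± 0.40, adjusted p = 0.0179) with overlapping groups, and not without Etv2-negative replicate 1 or 2 or Etv2-positive replicate 3 (0.0713 to 0.0889). At the 3′ end of the cluster Hoxb1, the first to be switched on in the streak, fell from 36.8, 29.7 and 32.8 to 10.3, 10.4 and 8.24 CPM (-1.78 ± 0.11, adjusted p = 4.7e-07), and Hoxa2 fell at levels below 0.85 CPM (-1.54 ± 0.33). The run from Hoxb9 to Hoxb4 spans 50.2 kb (chromosome 11, 96271457 to 96321638). The strand setting of the counting is not given, so antisense transcripts within the cluster cannot be told apart from these genes.

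Cardiac regulators went both ways. Of 23 tested 8 were higher and 4 lower (median -0.02), with 7 of 14 first heart field and shared factors higher and 1 lower, against 1 of 9 factors of the second heart field higher and 3 lower. Nkx2-5 rose from 2.55, 2.17 and 1.48 to 7.06, 7.01 and 6.23 CPM (1.72 ± 0.16), Tbx5 from 3.37, 2.98 and 2.9 to 7.91, 11.4 and 8.96 CPM (1.61 ± 0.14) and Tbx20 by 0.89 ± 0.17. Tbx2 rose by 0.68 ± 0.15. Isl1, the best known factor of the second field, fell from 25.1, 22.1 and 24.8 to 7.21, 7.38 and 6.79 CPM (-1.75 ± 0.08, adjusted p = 2.28e-07), the 3 replicates of each group lying within a narrow range. Foxc1 and Foxc2 stand in this list too.

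Lateral plate and extraembryonic mesoderm genes were higher in 11 of 21 and lower in 4 (median 0.50). Tdo2, Ahnak (128, 143 and 309 against 594, 757 and 1079 CPM, 2.07 ± 0.32), the matrix protein Postn (2.64 ± 0.57), the hindlimb factor Pitx1 (1.57 ± 0.36) and Plac1 (1.51 ± 0.26) rose. The homeobox factors Irx3 (-1.55 ± 0.18) and Irx5 (-2.29 ± 0.22) and the nephric and lateral plate factor Osr1 (-1.97 ± 0.34) fell. Contractile genes of heart muscle were higher in 6 of 17 and lower in 2 (median 0.30). Tnnc1 rose from 2.67, 2.71 and 4.81 to 24.4, 17.1 and 24.8 CPM, the calcium release channel Ryr2 from 1.49, 2.38 and 3.23 to 11, 13.6 and 18.8 CPM (2.60 ± 0.28), and Myl4 (1.80 ± 0.21) and Tnnt2 (1.67 ± 0.23) rose as well, while the sarcomere crosslinker Actn2 fell (-0.84 ± 0.19). Of 14 smooth muscle contractile genes 9 were higher, 0 lower and 5 not called (median 0.62). Those not called were Myh11, Mylk, Smtn, Lmod1 and Synpo2. The higher members included Myl9 (7.09, 5.45 and 5.38 against 37.7, 30.3 and 27.7 CPM, 2.42 ± 0.31) and the calponin Cnn2 (65.6, 63.9 and 65.1 against 249, 218 and 214 CPM, 1.81 ± 0.16). Tagln (1.67 ± 0.25), Tpm1 (1.47 ± 0.14) and Acta2 (1.36 ± 0.20) also rose.

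**Figure D4:**
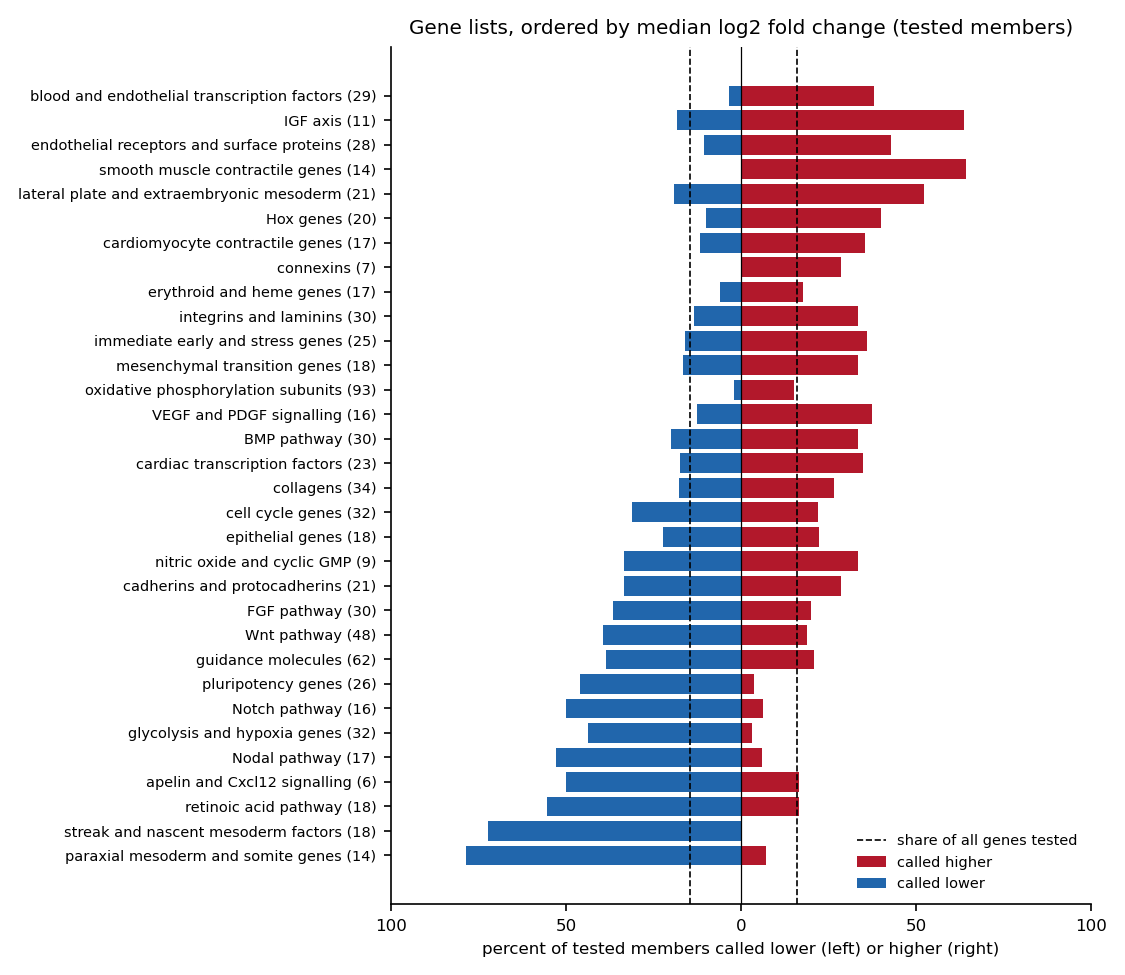
Share of the tested members of each of the 32 gene lists called higher (red, right) or lower (blue, left) in DP Etv2-positive cells, in percent, with the number tested in parentheses and lists ordered by their median log2 fold change. Dashed lines mark the shares over all genes tested, 16% higher and 14.7% lower. Paraxial mesoderm genes reach 11 of 14 lower, and smooth muscle genes 9 of 14 higher with 0 lower.

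The keratins Krt8, Krt18 and Krt19 of the epithelial list rose, and the list as a whole went both ways. Krt8 went from 138, 144 and 231 to 536, 433 and 566 CPM (1.58 ± 0.18), its partner Krt18 from 63.1, 67.9 and 133 to 412, 306 and 386 CPM (2.06 ± 0.25) and Krt19 from 15.1, 14.3 and 27.3 to 81.1, 66.7 and 69.1 CPM (1.94 ± 0.23). The adhesion molecule Epcam fell from 12.8, 13.4 and 17.1 to 8.53, 8.13 and 7.31 CPM (-0.86 ± 0.12), E-cadherin (Cdh1) was not called (-0.50 ± 0.24, adjusted p = 0.127), and the splicing factors Esrp1 and Esrp2 went opposite ways (-1.33 ± 0.21 and 1.87 ± 0.34). In all, 4 of 18 epithelial genes were higher and 4 lower (median -0.06). Among 18 genes of the mesenchymal transition 6 were higher and 3 lower (median 0.14). Vimentin (Vim, 0.67 ± 0.10) and Tgfb2 (1.02 ± 0.22) rose. Snai1, the streak factor that represses E-cadherin, fell from 156, 143 and 106 to 55.2, 51.3 and 39.1 CPM (-1.48 ± 0.18), and fibronectin (Fn1) from 6316, 6510 and 5547 to 3370, 4600 and 3054 CPM (-0.74 ± 0.13). Of 21 cadherins and protocadherins 6 were higher and 7 lower (median -0.20), with Cdh8 (1.62 ± 0.27) beside Pcdh12 and Cdh5 among the first and Cdh4 (-1.10 ± 0.20) beside Pcdh8 and Pcdh19 among the second.

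Collagens went both ways. Of 34 collagens tested 9 were higher and 6 lower (median -0.03). The fibrillar Col1a1 rose from 51.6, 55.4 and 153 to 354, 382 and 526 CPM (2.28 ± 0.34), Col8a2 from 2.15, 1.51 and 3.37 to 9.71, 10.1 and 9.79 CPM (2.08 ± 0.26), and the basement membrane chains Col4a5 (1.85 ± 0.21), Col4a6 (1.59 ± 0.24), Col4a2 (0.79 ± 0.09) and Col4a1 (0.63 ± 0.10) rose with them. Col9a1 (-1.65 ± 0.24) and Col22a1 (-1.23 ± 0.16) fell. Of 16 fibroblast feeder markers, 12 could be tested and 6 were higher, among them Col1a1, Postn, Cd44 (1.57 ± 0.15) and Pdpn (1.45 ± 0.24), with 1 lower. Their summed level was 366 to 562 CPM in negative and 717 to 1022 CPM in positive libraries. Among the members that were not called or not tested, Dcn and Lum had 0 counts in the negative libraries and 2 and 5 counts in the 3 positive libraries together. Col3a1 stood at 0.0784 to 0.707 against 0.441 to 1.52 CPM and was not called. The part of feeder cells in the matrix result was not tested.

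Integrins and laminins attach cells to this matrix. Of 30 tested 10 were higher and 4 lower (median 0.18). Itga3, a laminin receptor, rose from 4.39, 3.44 and 7.64 to 19.5, 21.1 and 29 CPM (2.17 ± 0.29), Itga4 by 1.89 ± 0.41 and the shared beta chain Itgb1 by 0.43 ± 0.05. Itga8 fell from 70.8, 69.5 and 56.6 to 10.1, 16.4 and 9.24 CPM (-2.46 ± 0.20). The vascular laminin chains Lama4 (14, 15.5 and 27 against 48, 54 and 79.5 CPM, 1.68 ± 0.22) and Lama5 (0.82 ± 0.13) rose, and the early embryonic chain Lama1 fell (-0.67 ± 0.12).

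Guidance molecules, which steer axons and migrating mesoderm alike, were lower in 24 and higher in 13 of 62 (median -0.27). Among Slit and netrin genes and their receptors, 8 of 15 were lower, with Slit1 (51.6, 48.2 and 39.1 against 10.2, 15.9 and 8.71 CPM), Ntn1 (-2.62 ± 0.52) and Robo1 (-1.23 ± 0.16). The ephrin receptor Epha1 (-2.35 ± 0.30), the ligand Efna3 (-1.91 ± 0.28) and the semaphorin receptor Plxna2 (204, 219 and 176 against 53.4, 83.1 and 63.6 CPM, -1.58 ± 0.14) fell. The arterial ephrin Efnb2 (0.76 ± 0.11), the vascular netrin receptor Unc5b (0.75 ± 0.10) and Sema3f (0.96 ± 0.10) rose. Of 7 connexins 2 were higher and 0 lower (median 0.27), with Gjb2 at 2.70, 2.89 and 5.12 against 16, 16.1 and 13 CPM (2.07 ± 0.26).

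Glycolytic and hypoxia-induced genes were lower, 14 of 32 with 1 higher (median -0.50). Pdk1, which holds pyruvate out of mitochondria, fell from 51.1, 34 and 74 to 11, 9.48 and 22.8 CPM (-1.87 ± 0.46), Pfkfb3 from 41.8, 33.2 and 57.5 to 14.5, 15.4 and 18.9 CPM (-1.44 ± 0.23) and the oxygen sensor Egln3 by 1.24 ± 0.22 on the log2 scale. For these genes replicate 3 was the highest in both groups. Bnip3 fell by 1.88 ± 0.57 (adjusted p = 0.0239), a call lost without Etv2-negative replicate 3 or Etv2-positive replicate 1 or 2 (0.0829 to 0.0844). The glucose transporter Slc2a1 went against the list (0.78 ± 0.27, adjusted p = 0.0442) with overlapping groups, and was not called without Etv2-negative replicate 1 or 2 or Etv2-positive replicate 1 or 3 (0.0614 to 0.169). It was also not called with DESeq2 or with only the compared groups. Among subunits of oxidative phosphorylation the share called was lower than over all genes, with 14 of 93 higher, 2 lower and a median of 0.12. Cell cycle genes differed by small amounts, 7 of 32 higher and 10 lower (median -0.04), with Ccnd2 (0.55 ± 0.12) and Ccnd3 (0.52 ± 0.09) up and the replication factor Mcm3 (-0.32 ± 0.06) and E2f1 (-0.43 ± 0.09) down. Of 25 immediate early and stress genes, which respond to cell handling, 9 were higher and 4 lower (median 0.17), for example Jund (0.76 ± 0.12), Atf3 (0.96 ± 0.24) and Gadd45a (-0.71 ± 0.14).

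The reporter effect in DP was set against that in SP by the test of the difference itself. Of 17690 genes 702 were called for the interaction (3.97%), against 1537 with the replicate block and 1242 with DESeq2. Of the 702, 536 were also called in DP. In 354 of these the gene was higher in DP Etv2-positive cells with a smaller or negative effect in SP, and in 169 it was lower in DP with a less negative or positive effect in SP. The opposite held for 10 genes called higher and 3 called lower in DP. Since the interaction subtracts the DP effect, choosing genes called in DP favours the first 2 kinds. Among genes not called in DP, the effect was more positive in SP for 90 and more negative for 76. The number of genes called for the interaction depended on single libraries, ranging from 50 without DP Etv2-negative replicate 2 to 1268 without DP Etv2-negative replicate 3. It was 114 without DP Etv2-negative replicate 1, 211 without DP Etv2-positive replicate 3, 143, 367 and 162 without SP Etv2-negative replicates 1, 2 and 3, and 188 and 190 without SP Etv2-positive replicates 2 and 3. The interaction was checked in 18 alternatives, which left out upper-quartile scaling, the fit without a filter and the removal of gene classes. For 10 of the genes named here the difference was called in all 18, and these are described next.

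Foxc2 showed the largest of these differences. It fell in DP and stood at 0.45 ± 0.23 in SP, an interaction of 3.09 (adjusted p = 0.00363). Its mean level was 1.92 and 2.61 CPM in SP Etv2-negative and Etv2-positive libraries, against 11.25 and 1.79 CPM in DP. Notch1 fell in DP (-1.12) and was positive in SP (0.39 ± 0.13, interaction 1.51). The endocardial calcium-responsive factor Nfatc1 stood at 29.4, 32.9 and 25 against 20.9, 26.1 and 21.3 CPM in DP, where it was not called (-0.35 ± 0.13, adjusted p = 0.053; 0.0241 with the replicate block), and at 1.12 ± 0.13 in SP (interaction 1.48). Aplnr (-0.10 ± 0.10) and Fgf4 (-0.51 ± 0.21) also had smaller values in SP than their decreases in DP. Conversely Tnnc1 (0.83 ± 0.19 in SP), Krt8 (0.00 ± 0.18), Col8a2 (-0.02 ± 0.25), Ripor3 (2.50 ± 0.25 in DP, 0.03 ± 0.24 in SP) and the spindlin relative Spin2c (1.87 ± 0.27 in DP, -0.68 ± 0.26 in SP) had lower values in SP than their increases in DP. Etv2-negative cells of the 2 gates did not start from the same level. Ripor3, Spin2c and Tnnc1 had means of 27.0, 54.55 and 8.66 CPM in SP Etv2-negative libraries, against 9.92, 22.6 and 3.4 CPM in DP. SP levels of the other genes are not given here, and whether starting levels account for the differences was not tested. Tal1, Sox7, Lmo2, Mesp2 and Dll1 were not called for the interaction, with SP effects of 3.16, 3.33, 2.52, -2.77 and -3.21.

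**Figure D5:**
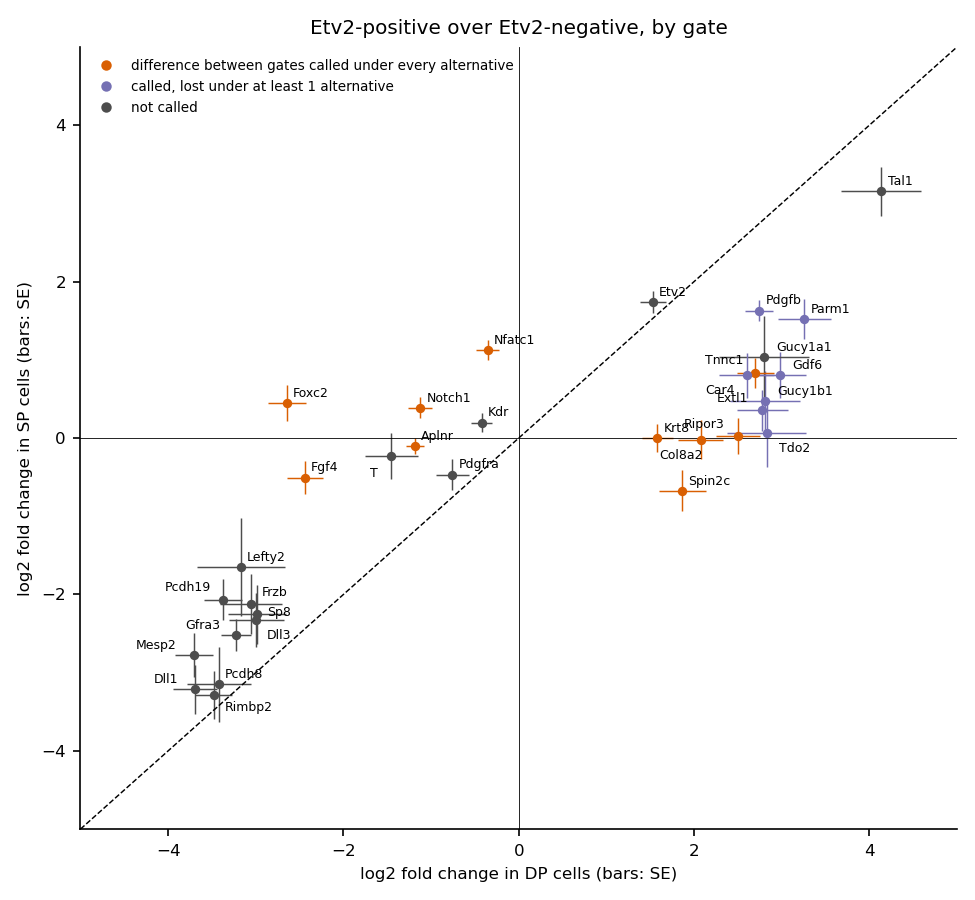
Log2 fold change of Etv2-positive over Etv2-negative cells in DP (horizontal) and SP (vertical), with standard errors as bars. Shown are the sort genes, the largest changes and interactions in DP, and 10 genes marked in orange. For these 10 the difference between gates was called in all 18 alternatives checked for the interaction. The dashed line marks equal effects, and Foxc2 lies at -2.65 in DP and 0.45 in SP.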

How the data were processed

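The authors deposited raw read counts per gene, made with featureCounts on mm10 per the submitters' processing notes. The aligner, annotation, versions and strand setting are not given in the sources used here. Per the labels, cells were sorted by FACS and libraries made with the TruSeq Stranded Total RNA kit. Of 55487 gene IDs, 55227 were named from GENCODE M21 (mm10). The 12 libraries of the reporter line were fitted together in edgeR 4.0.16 (R 4.3.3) with TMM factors, filterByExpr and a quasi-likelihood test on group means, so the 4 groups share 1 estimate of the spread. P-values were adjusted by Benjamini-Hochberg over 17690 genes, and standard errors were taken as the size of the log2 fold change over the root of F. The interaction is the SP effect minus the DP effect. The fit was also run on counts simulated from its own means and spread, without pairing of replicates. Such a run checks the code and cannot show how well the fit suits these libraries.

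Named by rule were the sort genes, the 10 largest called changes each way among protein-coding genes of at least 5 CPM mean whose groups did not overlap (without predicted, ribosomal protein, mitochondrial and histone genes), the 5 largest interactions also called in DP, up to 4 called members each way per list and members that mark a list's role. The members and lists were chosen with earlier results of these data known. Genes outside the rule (the imprinted genes, neighbours in runs and some list members) were named after their values were seen. A few list members are counted but not reported here by name. Same-numbered DP libraries deviated together from their group means (correlations 0.389, 0.317 and 0.497 over 14555 genes, against -0.356 to 0.0179 for different numbers), so the numbers were taken to pair them, and a fit with the number as a block was run. Other alternatives were RLE and upper-quartile scaling, other filters, DESeq2 1.42.0, only the compared groups, removal of ribosomal and mitochondrial genes or of pseudogenes, and omission of libraries. Of 222 genes given with values, 8 had fewer than 90% of 50-base windows unique to them (Bnip3, Etv5, Hoxa2, Igf2, Krt8, Lefty1, Lefty2 and Tdgf1) and are uncertain to that degree.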

Additional observations from a re-analysis of the deposited data

Results flagged for a closer look

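For 63 of the genes named, the reporter effect differed between the 2 gates by the interaction test of edgeR, given here as the log2 fold change in SP minus that in DP. A negative value means a lower effect in SP. The difference was called in all 18 alternatives checked for the interaction for Nfatc1 (1.48), Aplnr (1.08), Notch1 (1.51), Foxc2 (3.09), Fgf4 (1.93), Tnnc1 (-1.87), Krt8 (-1.58), Col8a2 (-2.1), Spin2c (-2.54) and Ripor3 (-2.48). The other 53 lost the call in at least 1 alternative, all of them without some single DP library, and are given as values only. Among blood and vessel genes the values were Gata2 (1.12), Bcl6b (1.7), Hhex (1.73), Flt1 (1.33), Pdgfb (-1.11), Pdgfc (-1.84), Vegfc (-0.975), Pdgfrb (-0.792), Gucy1b1 (-2.34), Apln (0.929), Ackr3 (-0.852) and Cd44 (-0.86). Among signalling genes the values were Lfng (1.85), Gdf6 (-2.17), Id3 (-0.536), Smad6 (-0.563), Smad7 (-0.512), Bambi (-0.75), Msx2 (-0.942), Wnt2b (2.16), Wnt4 (-1.41), Ror2 (0.722), Fzd4 (-1.91), Flrt3 (-1.18), Fgfr2 (-1.9) and Igfbp3 (-1.29). Among mesoderm, heart and muscle genes the values were Hoxb1 (0.575), Tbx2 (-1.22), Ahnak (-1.69), Plac1 (-1.62), Tdo2 (-2.77), Ryr2 (-1.99), Myl4 (-1.18), Tnnt2 (-1.28) and Tpm1 (-0.857). Among keratin, matrix, adhesion and guidance genes the values were Krt18 (-1.78), Krt19 (-1.39), Vim (-0.618), Col1a1 (-2.04), Itga3 (-1.97), Lama5 (-0.717), Lama1 (0.703), Plxna2 (0.801), Unc5b (-0.587), Gjb2 (-1.87) and Pdpn (-1.35). Among other genes the values were Ccnd2 (-0.639), Parm1 (-1.73), Extl1 (-2.43), Car4 (-1.8), Glrb (-1.62), Ctso (-1.72) and Mest (-1.49). No explanation of these differences was tested.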

How the results depend on the processing

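Of 222 genes given with values, 210 were called. Of these, 191 were called in every alternative run and 19 lost the call in at least 1, 17 of them when 1 DP library was left out. The replicate block, which fits the shared replicate numbers, gave 3207 higher and 3007 lower genes, ended no call among these genes and added 8 of the 12 that were not called. The direction turned for Map9 alone, which was not called in any alternative (0.15 in the reported fit, -0.00242 to 0.254 with 1 DP library left out). Of all genes called in DP, those with a change of at least 2-fold were 1276; 586 of the genes called higher in DP and 690 of the genes called lower in DP passed it. Leaving out each DP library in turn left 4022 to 5062 genes called in DP. Upper-quartile scaling gave 2495 higher and 2931 lower genes. The number of genes called for the interaction was less stable: 1537 with the replicate block, 1242 with DESeq2, 119 without both libraries of high ribosomal RNA share (SP Etv2-negative replicate 2 and SP Etv2-positive replicate 3), and 50 to 1268 with 1 library left out. Of 1292 list counts over 17 settings, 130 moved by over 1.5 times, 20 of them counts of at least 5. Leaving out both DP libraries numbered 3, chosen after seeing the data, gave 2134 higher and 1907 lower genes. This ended 8 calls among genes given with values (Erg, Gata2, Bcl6b, Robo4, Cpox, Alas1, Nodal and Krt79). A fit of only the compared groups also ended 8 (Kdr, Robo4, Alas1, Gucy1a2, Prkg2, Bmp4, Hoxb9 and Slc2a1). Without both libraries of high ribosomal RNA share, Robo4, Alas1, Gucy1a2 and Prkg2 lost theirs. Without a filter Robo4, Alas1 and Rfng did, with DESeq2 Robo4, Prkg2 and Slc2a1, and with upper-quartile scaling Alas1 and Ackr3. At 25045553 counts, 3 counts correspond to 0.12 CPM, so levels near that value rest on a few counts.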

Other observations

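Imprinted genes, which are expressed from 1 parental copy, were looked at after the values had been seen, so their counts are a description. Whether each gene on the list is imprinted in these cells was not tested. Of 40 on the list 39 were tested for the reporter effect, and 14 were higher and 4 lower in Etv2-positive DP cells. That was 46.2% in all, against 30.7% of all genes tested (16% higher and 14.7% lower). The median log2 fold change of the list was 0.24. Mest, a paternally expressed gene of mesoderm, stood at 202, 219 and 397 CPM in Etv2-negative and 1131, 1207 and 1391 CPM in Etv2-positive libraries, without overlap (2.19 ± 0.21, adjusted p = 1.48e-05 by edgeR). Airn, a noncoding RNA of the Igf2r locus, also rose, from 1.18, 1.09 and 1.92 to 2.1, 3.56 and 6.94 CPM (adjusted p = 0.00452 by edgeR), together with H19 and Igf2. Igf2r itself was not called (-0.036 ± 0.16, adjusted p = 0.897 by edgeR). Airn runs antisense across part of Igf2r, and since the strand setting of the counting is not given, reads of the overlap cannot be told apart. Nnat, also paternally expressed, fell from 42.2, 46.1 and 45.3 to 15.6, 23 and 21.8 CPM (-1.15 ± 0.16).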
